A study of Mus musculus with 11 samples.

Results

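The comparison described here set retinas with germline loss of Six6 against control retinas, in a mouse RNA-seq study of the paralogous homeobox genes Six3 and Six6. Its members are the count-table columns whose names start with Six6KO and WT, which are 2 and 3 libraries out of 11. Six6KO retinas were Six3F/F; Six6–/–, and WT retinas were Six3F/F; Six6+/+. Both groups therefore carried the floxed Six3 alleles, and neither carried Cre. The remaining libraries come from DKO retinas (Six3F/F; CAGGCre-ERTM; Six6–/–, 3 libraries) and Six3KO retinas (Six3F/F; CAGGCre-ERTM; Six6+/+, 3 libraries), which differ from each other in Six6 alone, both with Cre. All embryos were of the NMRI strain. Tamoxifen (0.15 mL of a 20 mg/mL stock) was given to the dams at E10.5 and at E11.5, E standing for the embryonic day, so the Cre-free embryos were exposed to tamoxifen too. Retinas were taken at E13.5, and a library stands for a pair of retinas. A further Six6KO library was removed by the submitters because of high duplication, which leaves 2.

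Six6 encodes a homeodomain transcription factor of the sine oculis homeobox family. It is expressed in the eye field, the retinal progenitors and parts of the hypothalamus and pituitary, acts together with Eya and Dach cofactors, and is needed for an eye of normal size. Its closest relative, Six3, is expressed in an overlapping domain. At the age studied the mouse retina consists mostly of dividing progenitors and has begun to produce ganglion cells, cones, horizontal cells and amacrine cells, while most rods and all bipolar cells come later.

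Reads assigned to genes numbered 8867708 and 9166054 in the Six6KO libraries, against 7807744 to 12505379 in the 3 WT libraries. They numbered 11965016 to 12659540 in DKO and 9786661 to 16403191 in Six3KO libraries. Every replicate pair differed by more than counting error (a chi-square per degree of freedom of 52.95 for the Six6KO pair, and of 9.84 to 77.9 over all pairs), so no library was a copy of another. Levels are given as CPM, counts scaled to library size with TMM factors. Libraries stood apart in bordering tissue. A list of 20 skeletal muscle genes summed to 2648 and 2906 CPM in the Six6KO libraries, against 45.2, 64.6 and 26.1 CPM in the WT libraries. A list of 23 lens genes summed to 55.1 and 11720 CPM in the Six6KO libraries rh007 and rh020, against 29.6, 192 and 1535 CPM in WT. A list of 28 periocular mesenchyme genes summed to 4745 and 2831 CPM in Six6KO, against 3321, 957 and 4268 CPM in WT, the low value being that of WT library rh023. The Y-linked gene Ddx3y was at 71.5 and 89.7 CPM in the Six6KO libraries, against 77.7 CPM in WT rh023 and 0.0781 and 0.127 CPM in the other WT libraries, so sex was not balanced between the groups. Retinal identity was plain in all 5 libraries, in which the eye field gene Rax had 203 CPM or more in Six6KO and 151 CPM or more in WT.

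**Figure D1:**
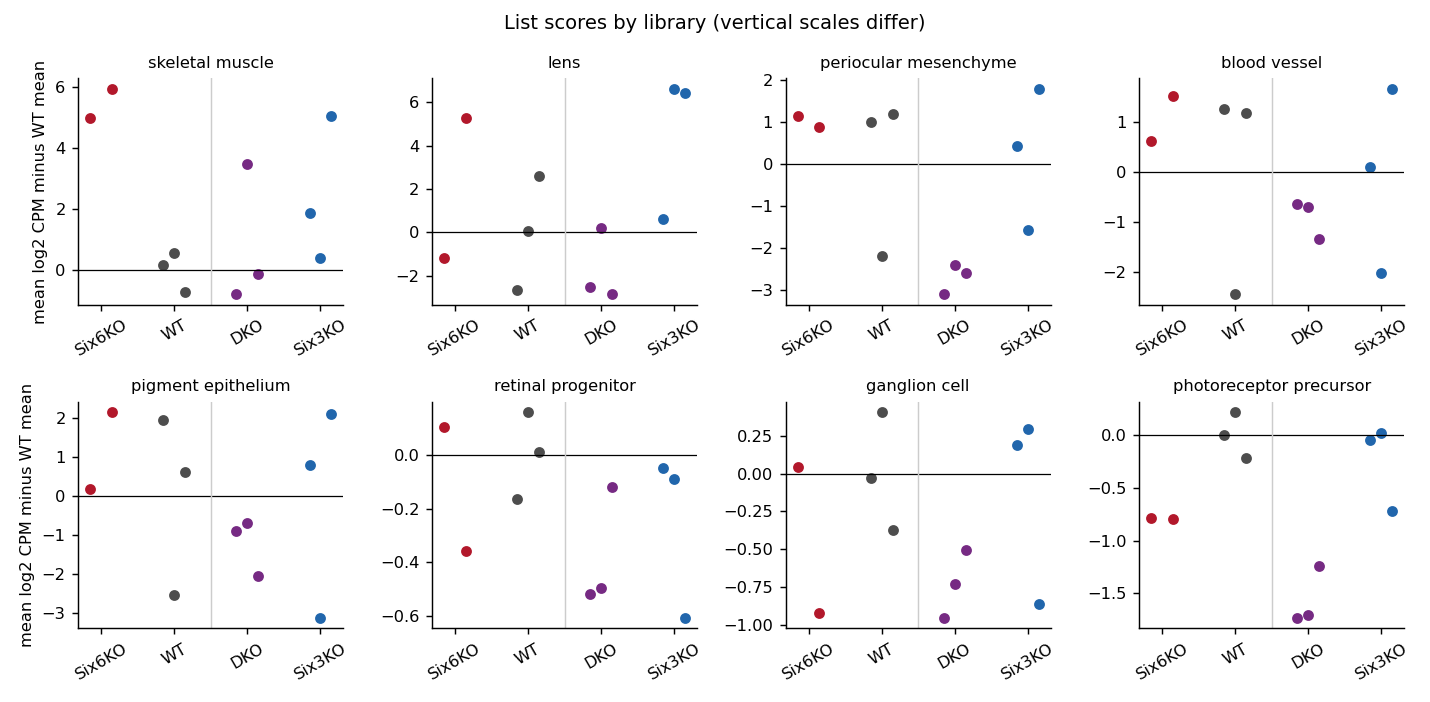
List scores by library, each the mean log2 CPM of a list's members minus the mean of the 3 WT libraries; every point is 1 library, and the vertical scales differ between panels. The muscle scores of the Six6KO libraries (4.98 and 5.93) lie far above those of WT (-0.72 to 0.57), while the lens score separates the Six6KO libraries from each other (-1.18 and 5.25).

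Six6 itself had 131 and 76.8 CPM in the Six6KO libraries, against 225, 340.1 and 277 CPM in the WT libraries. Both Six6KO libraries lay below every WT library, yet they kept a large share of the WT signal. The labels do not state which part of the gene the null allele lacks, and the counts cover the whole gene, so reads from outside the deleted part would be counted. Among Cre carriers Six6 had 56.0, 52.8 and 99.8 CPM in DKO, against 334.8, 339 and 168 CPM in Six3KO. The log2 fold change of Six6 was -1.43 ± 0.40 (SE) for Six6KO against WT, with an unadjusted p of 0.00582 and an adjusted p of 0.991 in edgeR's quasi-likelihood test over 13292 genes. A fit with the muscle score as a covariate gave -0.50 ± 0.51 (unadjusted p = 0.346). Muscle scores did not overlap between Six6KO and WT, so this covariate is confounded with genotype in the 5 libraries. Its slope comes mostly from the spread within DKO and Six3KO. Here and below, values with it are not effects freed of muscle content. For DKO against Six3KO the log2 fold change of Six6 was -2.01 ± 0.36, which passed the test (adjusted p = 0.0465). Six6 (chr12:72939892-72944899 of GRCm38, plus strand) shares exonic sequence with 4930447C04Rik on the other strand, and whether reads were counted by strand is unknown here. That gene was at 19.0 and 11.02 CPM in Six6KO and at 10.9, 17.6 and 12.2 CPM in WT.

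Six3, the paralog left intact in both groups, had 307 and 142 CPM in Six6KO, against 164, 299 and 223 CPM in WT, and the 2 groups overlapped. Its log2 fold change was -0.03 ± 0.46 (adjusted p = 0.998), and an SE of that size leaves room for a difference in either direction. Its antisense partner Six3os1, which shares exonic sequence with it, had 704 and 429 CPM in Six6KO and 396, 713 and 595 CPM in WT.

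No gene passed an adjusted p of 0.05 in Six6KO against WT: 0 of 13292 genes (0%) were called by edgeR, with 518 (3.9%) at an unadjusted p under 0.05, of which 301 (2.26%) were higher and 217 (1.63%) lower. Called here means an adjusted p under 0.05 over all genes tested. DESeq2 called 2 of 13429 genes (0.0149%), Cdh13 and Filip1. An edgeR fit on the 5 libraries alone called 10 of 13149 (0.0761%). All 10 were higher in Six6KO, and 6 of them stand on the skeletal muscle list. The others were Actn2, Casq2, Klhl31 and Klhl41. Among Cre carriers these were highest in DKO rh011 and Six3KO rh026, which had the highest muscle scores of their groups. Actn2 had 26.8 and 39.9 CPM there. The 10 include Myh3, an embryonic myosin heavy chain, which had 435 and 424 CPM in Six6KO, against 5.94, 3.24 and 3.06 CPM in WT, and Ttn, the sarcomeric spring titin. In data simulated from these libraries, the same fit recovered 33% of genes changed by a fold of 2 and 90.5% of those changed by a fold of 4 in Six6KO, at 200 changed genes each, among 13163 and 13157 genes tested. The changed genes were above 5 CPM in WT. Counts were drawn independently around the WT mean of each gene, so the simulated libraries held no shared differences in tissue content. The recovered shares therefore do not carry over to the measured libraries.

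The genes named next are the 10 higher and 10 lower ones with the smallest unadjusted p among those at 5 CPM or more on average whose Six6KO and WT libraries did not overlap. Over all genes such separation occurred in 1734 of 13292 (13%), with 957 (7.2%) higher and 777 (5.85%) lower, so the values that follow describe the groups and are not calls. DKO against Six3KO shares no library with this comparison and gave 78 called genes of 13292 (0.587%), 44 of them higher (0.331%) and 34 lower (0.256%). Both contrasts take the spread of each gene from the same fit over all 11 libraries, so their p-values are not independent. DKO against Six3KO was read as a second measurement of Six6 loss, on a background of Cre and conditional Six3 loss. DKO and Six3KO libraries also differed in tissue content, and with the lens score as a covariate none of the 78 calls was left. In that fit the log2 fold changes were 2.84 against 2.68 for Filip1, 1.96 against 2.12 for Cdh13 and 1.90 against 1.80 for Erbb4. They were -1.96 against -1.64 for Prkch and -1.48 against -1.58 for Otx2. Values of the other called genes in that fit are not given. Lens scores did not overlap between DKO (-2.54, 0.22 and -2.86) and Six3KO (0.60, 6.63 and 6.42). This covariate is therefore confounded with Six6 genotype there, and values with it are not effects freed of lens content.

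Among genes of adhesion and signalling, Cdh13, which encodes the membrane-anchored T-cadherin, had 14.3 and 14.0 CPM in the Six6KO libraries, against 5.31, 4.39 and 2.80 CPM in the WT libraries. Its log2 fold change was 1.74 ± 0.26 (unadjusted p = 5.85e-05, adjusted p = 0.778 in edgeR and 9.34e-05 in DESeq2). Both Six6KO libraries stood above every WT library, and the pair was close together. Among Cre carriers Cdh13 had 41.4, 34.0 and 42.6 CPM in DKO, against 7.66, 8.25 and 11.3 CPM in Six3KO, and it rose there by 2.12 ± 0.23 on the log2 scale (adjusted p = 0.00607). A difference between both effects was not detectable (unadjusted p of the difference 0.309).

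Filip1, whose protein binds filamin A and is known from migrating neurons, had 119.6 and 118 CPM in Six6KO, against 38.7, 56.4 and 62.3 CPM in WT. The log2 fold change was 1.18 ± 0.23 (adjusted p = 0.991 in edgeR and 0.00662 in DESeq2). Among Cre carriers it had 818, 794 and 535 CPM in DKO, against 118, 121 and 95.8 CPM in Six3KO. The Six6KO libraries thus lay within the range of the Six3KO libraries, above all WT libraries, and the DKO libraries lay above all others. The rise in DKO over Six3KO was 2.68 ± 0.22 (adjusted p = 0.00400), and its difference from the effect without Cre had an unadjusted p of 0.000802. That difference was not called, and no gene was called for it (0 of 13292, 0%, with 1328, 9.99%, at an unadjusted p under 0.05; 240 genes by DESeq2).

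Erbb4, a receptor tyrosine kinase for neuregulins, had 36.7 and 30.2 CPM in Six6KO, against 13.3, 17.8 and 16.6 CPM in WT (log2 fold change 1.08 ± 0.26, adjusted p = 0.991). In DKO it had 125, 154 and 76.9 CPM, against 35.0, 35.8 and 31.3 CPM in Six3KO, a rise of 1.80 ± 0.23 (adjusted p = 0.0106). Here too, the ranges of Six6KO and Six3KO libraries overlapped, with all WT libraries below them and all DKO libraries above. Its call in DKO against Six3KO was lost without DKO library rh010 (adjusted p = 0.0656) and with the mesenchyme score as a covariate (adjusted p = 0.0857), at log2 fold changes of 1.76 and 1.64.

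**Figure D2:**
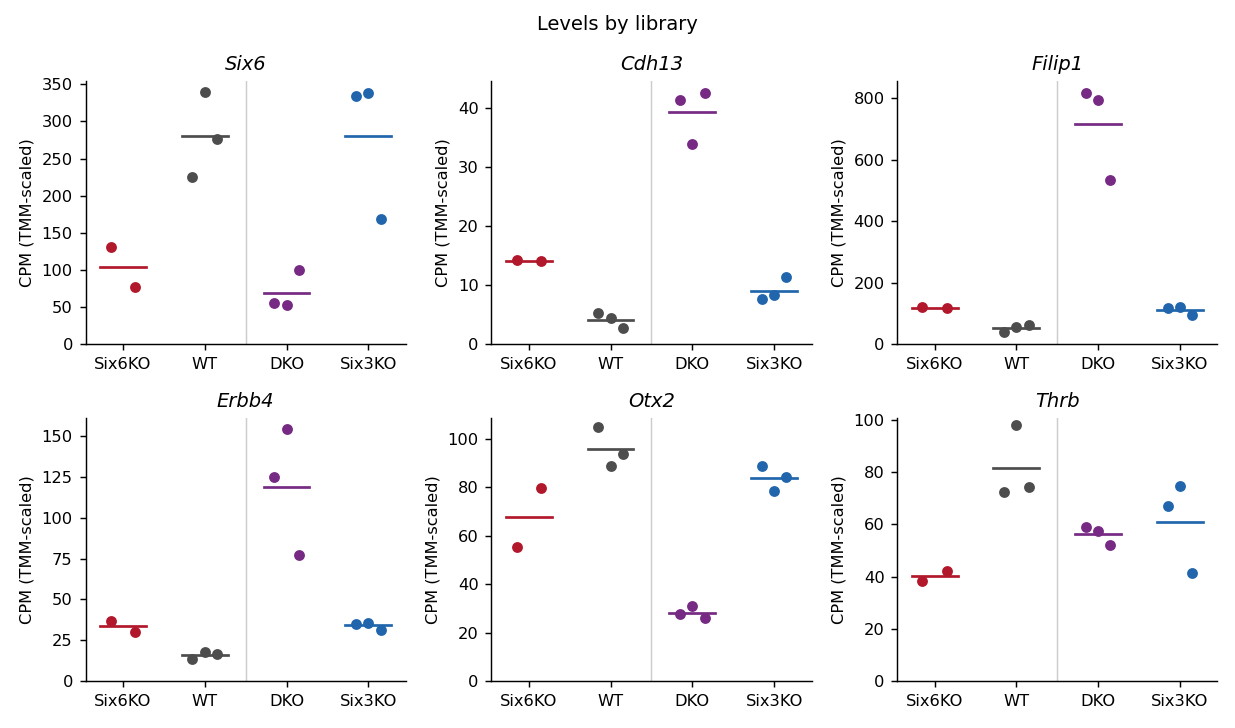
CPM of 6 genes in every library, with each point a library and each bar the group mean; the grey line divides the Cre-free groups (left) from the Cre carriers (right). Cdh13, Filip1 and Erbb4 are higher in Six6KO than in WT and higher in DKO than in Six3KO, and Six6 and Otx2 are lower in both comparisons.

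The other higher genes of this group were cell-surface or secreted signalling components. Epha3, an ephrin-A receptor, had 61.4 and 130 CPM in Six6KO, against 41.9, 32.3 and 23.2 CPM in WT. Its log2 fold change of 1.56 ± 0.36 was 0.69 with the muscle score as a covariate and 0.89 without Six6KO rh020. In the muscle-high libraries DKO rh011 and Six3KO rh026 it had 73.3 and 70.0 CPM, the highest values of their groups. Stc2, a secreted stanniocalcin, had 8.24 and 7.92 CPM against 2.50, 3.70 and 4.46 CPM in the same order. Gfra1, the co-receptor of the neurotrophic factor GDNF, had 46.5 and 56.3 CPM in Six6KO and 32.0, 32.7 and 28.7 CPM in WT. None of the 3 was called in either comparison, and their log2 fold changes in DKO against Six3KO were 0.39 ± 0.32, 0.83 ± 0.25 and 0.11 ± 0.16.

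Srl, Itgb1bp2 and Ablim3 were high where muscle genes were high. Srl encodes sarcalumenin of the muscle sarcoplasmic reticulum, Itgb1bp2 encodes the striated muscle protein melusin, and Ablim3 an actin-binding LIM protein. Ablim3 had 19.7 and 17.2 CPM in Six6KO, against 1.48, 1.97 and 0.382 CPM in WT. Outside this comparison its highest values were 4.80 CPM in DKO rh011 and 12.2 CPM in Six3KO rh026, the libraries with the highest muscle scores of their groups (3.48 and 5.04). Srl had 77.7 and 71.6 CPM in Six6KO, against 42.4, 42.2 and 39.2 CPM in WT, with 59.96 CPM in DKO rh011 and 60.03 CPM in Six3KO rh026. Itgb1bp2 had 13.9 and 26.3 CPM in Six6KO, against 5.08, 7.75 and 7.52 CPM in WT. With the muscle score as a covariate, the log2 fold change of Srl was 0.26, against 0.85 without it, that of Itgb1bp2 0.69, against 1.57, and that of Ablim3 0.80, against 3.82. Tecr, a reductase of very long chain fatty acid synthesis, was the remaining higher gene, at 103 and 102 CPM in Six6KO and 83.3, 74.6 and 62.8 CPM in WT.

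Among the lower genes, Thrb, the thyroid hormone receptor that patterns cone opsins, had 38.4 and 42.3 CPM in Six6KO, against 72.3, 97.9 and 74.2 CPM in WT. Its log2 fold change was -1.01 ± 0.24 (unadjusted p = 0.00176, adjusted p = 0.991), and -0.63 with the muscle score as a covariate. In DKO it had 58.9, 57.6 and 52.2 CPM, against 67.0, 74.8 and 41.4 CPM in Six3KO, where the groups overlapped and the log2 fold change was -0.12 ± 0.20. Prkch, the gene of protein kinase C eta, had 12.9 and 13.7 CPM in Six6KO, against 27.4, 28.4 and 17.3 CPM in WT. It fell by 1.64 ± 0.23 in DKO against Six3KO on the log2 scale (8.93, 6.38 and 8.17 CPM against 27.4, 19.2 and 26.8 CPM, adjusted p = 0.0173). Itga6, a laminin-binding integrin subunit, had 110.1 and 108 CPM in Six6KO, against 144, 143 and 137 CPM in WT. In DKO it had 99.1, 95.5 and 109 CPM, against 129, 159 and 139.9 CPM in Six3KO, just outside the threshold (adjusted p = 0.0598). The call of Prkch in DKO against Six3KO was lost without DKO rh010 (adjusted p = 0.0762), without DKO rh011 (0.107), without Six3KO rh026 (0.0518) and with each of the 3 tissue scores as a covariate. In these fits its log2 fold change lay between -1.96 and -1.52.

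Lcorl, a transcription factor known from associations with body size, Fut9, the fucosyltransferase that makes the Lewis x epitope, Zfp182, the centriolar gene Lrrcc1 and Tmed5, a cargo receptor of early secretion, were lower in Six6KO only as a description. Lcorl had 61.0 and 60.6 CPM in Six6KO, against 104, 109 and 87.2 CPM in WT. Fut9 had 13.7 and 12.3 CPM in Six6KO, against 24.5, 23.4 and 19.4 CPM in WT. All 5 of these genes had log2 fold changes above 0 in DKO against Six3KO, between 0.13 and 0.67. Of the 20 genes, 11 (55%) kept their direction in DKO against Six3KO, 6 of 10 higher and 5 of 10 lower ones, against 47.3% of all genes tested. The count of called genes there was 5 of 20, made up of Cdh13, Filip1, Erbb4, Prkch and Six6, against 0.587% of all genes. The spread shared by both contrasts helped to choose the 20, so that count is not independent of the choice. Six6 is the targeted gene, and Prkch starts 0.645 Mb from it.

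**Figure D3:**
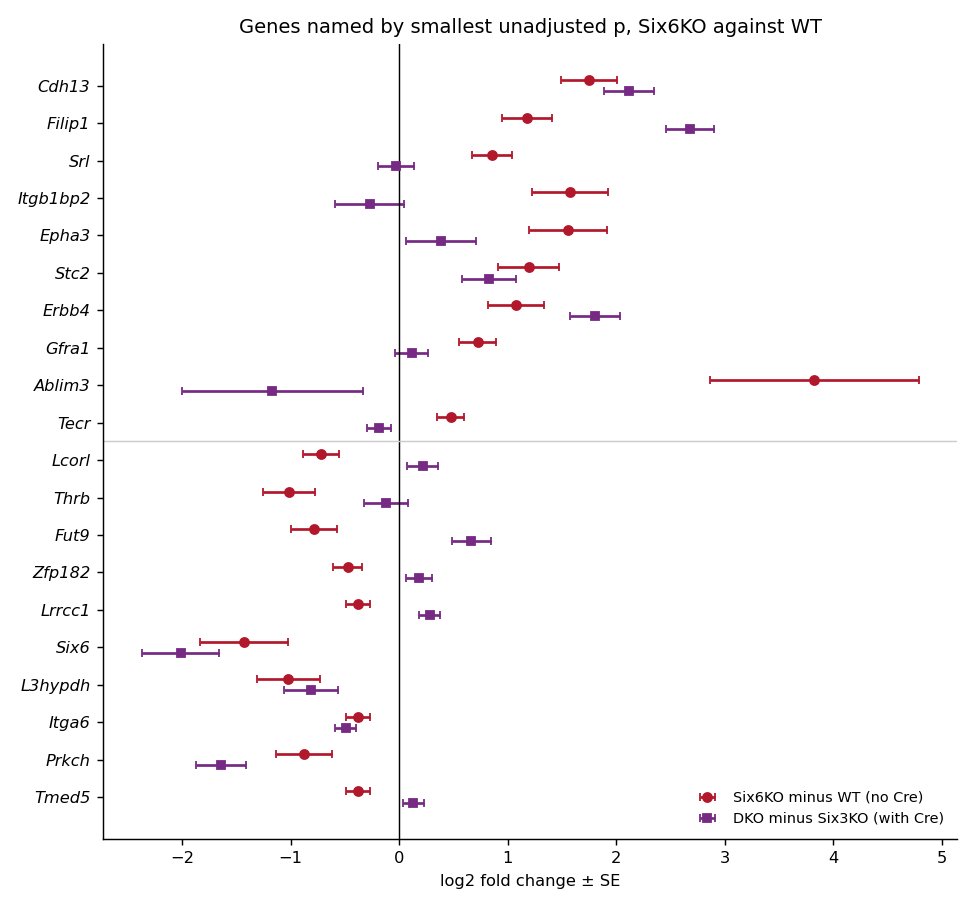
Log2 fold change ± SE of the 20 named genes in Six6KO against WT (circles) and in DKO against Six3KO (squares), with higher genes above the grey line and lower genes below it. Cdh13, Filip1 and Erbb4 lie to the right of 0 and Six6, L3hypdh, Itga6 and Prkch to the left of 0 in both. Srl, Itgb1bp2, Ablim3 and Tecr change sides among the higher genes, and Lcorl, Fut9, Zfp182, Lrrcc1 and Tmed5 among the lower ones.

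Read in the other direction, the 78 genes called in DKO against Six3KO were followed in the Cre-free libraries, whose group means do not enter that contrast. Their counts do enter the spread estimated over all 11 libraries, which helped to choose the 78. In Six6KO against WT, 54 of the 78 (69.2%) had the same direction, against 47.3% of all genes tested. Of the 78, 11 had the same direction at an unadjusted p under 0.05 (14.1%), against 1.56% of all genes, and 3 had the opposite direction at that level. A small shared spread favours a low p in both contrasts, so the 14.1% is not independent of the choice of genes. The 11 were Filip1, Cdh13, Car5b, Erbb4 and Rprm among the higher genes, and Otx2, Anks1b, Prkch, Fmn1, Doc2b and Six6 among the lower ones. Car5b, a mitochondrial carbonic anhydrase, had 1.97 and 3.53 CPM in Six6KO and 1.41, 0.116 and 0.637 CPM in WT, against 45.5, 41.7 and 32.9 CPM in DKO and 1.46, 1.54 and 2.22 CPM in Six3KO. Only the DKO libraries held it at a high level. Anks1b, which encodes a postsynaptic scaffold, had 9.86 and 9.41 CPM in Six6KO, against 15.8, 14.7 and 13.4 CPM in WT. Among Cre carriers it had 5.33, 7.95 and 7.14 CPM in DKO, against 17.3, 18.1 and 17.6 CPM in Six3KO. Rprm, a p53 target that restrains the cell cycle, had 40.8 and 50.0 CPM in Six6KO, against 29.9, 27.3 and 30.3 CPM in WT. Doc2b, a calcium sensor of vesicle release, had 8.24 and 2.78 CPM in Six6KO, against 12.1, 14.3 and 9.81 CPM in WT. Fmn1, an actin-nucleating formin, had 10.2 and 8.56 CPM in Six6KO, against 11.96, 13.9 and 18.5 CPM in WT. The median log2 fold change of the 44 genes called higher was 1.47 in DKO against Six3KO and 0.12 in Six6KO against WT. For the 34 called lower, the medians were -1.51 and -0.15. Car5b, Anks1b, Fmn1, Rprm and Doc2b were chosen after their values had been seen.

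Genes of photoreceptor precursors, the cells that in an embryonic retina are mostly young cones, stood lowest of the retinal lists. Of 13 measured members, 12 had a log2 fold change below 0 in Six6KO against WT, with a median of -1.01, against 48.5% of all genes below 0 and a median of 0.01. None was called. At an unadjusted p under 0.05, 6 were lower and 0 higher, against 1.63% and 2.26% of all genes, and 7 had both Six6KO libraries below every WT library, against 5.85% of all genes. The list score, the mean log2 CPM of the members relative to WT, was -0.78 and -0.79 in the Six6KO libraries, against 0.00, 0.22 and -0.22 in the WT libraries. That list had been seen to be low in these data before, so the pattern is not independent evidence.

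Otx2, the homeobox gene at the head of photoreceptor fate, had 55.6 and 79.6 CPM in Six6KO, against 104.9, 88.8 and 93.7 CPM in WT (log2 fold change -0.50 ± 0.16, adjusted p = 0.991). Both Six6KO libraries lay below the WT range. In DKO it had 27.7, 30.8 and 25.8 CPM, against 88.7, 78.5 and 84.1 CPM in Six3KO, and it fell there by 1.58 ± 0.14 (adjusted p = 0.00580). Otx2 overlaps exons of Otx2os1 on the other strand, so the 2 cannot be told apart without a strand setting. Crx, its target and partner in photoreceptor gene expression, had 16.2 and 9.41 CPM in Six6KO, against 31.6, 56.7 and 27.7 CPM in WT (-1.59 ± 0.62, unadjusted p = 0.0301). Prdm1, which holds cells to the photoreceptor rather than the bipolar fate, had 28.5 and 12.1 CPM in Six6KO, against 44.8, 93.2 and 57.0 CPM in WT (-1.68 ± 0.80, unadjusted p = 0.0652). In all 3 genes both Six6KO libraries lay below every WT library. With the muscle score as a covariate, Crx and Prdm1 turned to log2 fold changes of 0.11 ± 0.71 and 0.34 ± 0.98, so their signs were not resolved. The median of the list was -0.59. Otx2 was at -0.72 in that fit, and at -0.26 without Six6KO rh007.

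Products of the maturing photoreceptor showed the same order. Cdhr1, a cadherin of the outer segment base, had 4.76 and 3.85 CPM in Six6KO, against 14.1, 20.2 and 12.9 CPM in WT (-1.87 ± 0.61, and -0.73 with the muscle score as a covariate). The cone phototransduction genes Gnb3 and Gngt2, both G protein subunits, were low in every library. Gnb3 had 1.04 and 1.28 CPM in Six6KO, against 2.81, 3.12 and 3.31 CPM in WT, and Gngt2 had 0.348 and 1.18 CPM, against 3.05, 4.16 and 1.40 CPM. The members that did not separate were Cngb3, Casz1, Prdm16, Neurod1, Meis3 and Rxrg. Neurod1, which photoreceptor precursors share with amacrine precursors, had 78.3 and 52.7 CPM in Six6KO, against 57.2, 115 and 69.5 CPM in WT. In DKO against Six3KO the median of the list was -1.58, with 8 of 13 members lower at an unadjusted p under 0.05, against 8.49% of all genes, and Otx2 the member called.

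**Figure D4:**
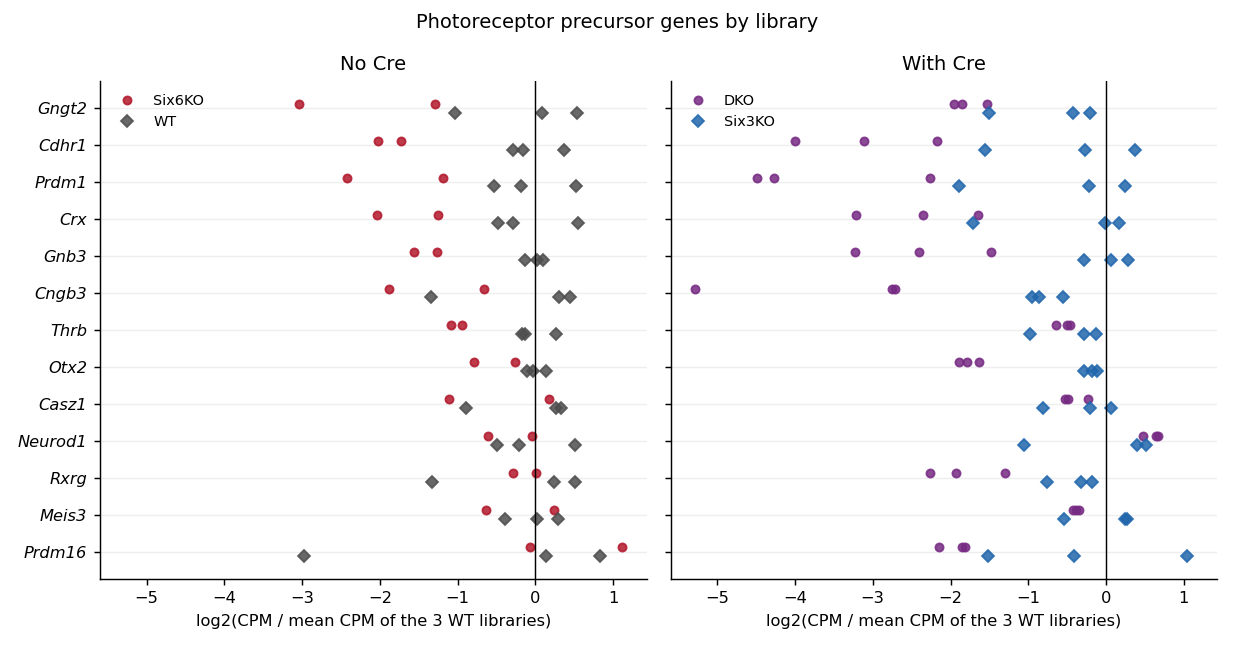
Level of each measured photoreceptor precursor gene in every library as log2 of its CPM over the mean of the 3 WT libraries, for Cre-free groups (left) and Cre carriers (right). In the left panel the Six6KO points of Gngt2, Cdhr1, Prdm1, Crx, Gnb3, Thrb and Otx2 lie below all WT points, and in the right panel most DKO points lie further to the left.

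Otx2 and Crx proteins bind the core motif TAATCC. Upstream windows are shown for Thrb, Otx2 and Crx because all 3 were lower in Six6KO and these windows hold that motif. Windows of list genes without the motif are not shown. The windows are the 250 bases before a RefSeq gene start on build GRCm38.p6, read 5′ to 3′ on the gene's strand, with TAATCC or its reverse complement GGATTA in capitals. The table of windows held 10 of the 13 list genes, with 16 windows, since a gene can have several starts.
Thrb, chr14:17660710-17660959, plus strand: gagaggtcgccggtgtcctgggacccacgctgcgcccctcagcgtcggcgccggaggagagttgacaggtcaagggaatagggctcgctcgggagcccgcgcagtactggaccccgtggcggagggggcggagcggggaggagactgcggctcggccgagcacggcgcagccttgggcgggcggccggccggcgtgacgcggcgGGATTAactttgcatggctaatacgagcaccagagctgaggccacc
Otx2, chr14:48665110-48665359, minus strand: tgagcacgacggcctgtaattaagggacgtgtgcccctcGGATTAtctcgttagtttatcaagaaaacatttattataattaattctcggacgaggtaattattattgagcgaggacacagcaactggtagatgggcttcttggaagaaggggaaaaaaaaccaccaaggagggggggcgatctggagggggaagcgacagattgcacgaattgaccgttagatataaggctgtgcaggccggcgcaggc
Crx, chr7:15879956-15880205, minus strand: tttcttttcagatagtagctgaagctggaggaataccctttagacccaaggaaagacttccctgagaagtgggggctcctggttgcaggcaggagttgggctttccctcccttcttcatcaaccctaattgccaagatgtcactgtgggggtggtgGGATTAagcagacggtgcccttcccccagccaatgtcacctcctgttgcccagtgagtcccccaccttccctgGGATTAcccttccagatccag
The hexamer begins 46 bases before the start in Thrb, 211 bases before it in this window of Otx2, which has several starts, and 94 and 21 bases before it in Crx, each time in the GGATTA orientation. Casz1, whose levels overlapped between the groups, holds it as well. Gngt2, Cdhr1, Prdm1 and Gnb3, the other members whose groups separated, are not among the genes with the motif. Members without a window could not be searched. Counting both strands, 4 of the 16 windows of the list (25%) contain the motif, against 4.91% of the 13046 windows of tested genes and 6.25% of all 32851 windows. TGATAC, the core of the motif of sine oculis homeobox factors, or its reverse complement GTATCA, is in 0 of the 16 windows of the list and in 0 of the 16 windows found for the 20 named genes, against 2.56% of windows of tested genes. These matches describe letters in the windows and say nothing of binding.

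Neurogenic and ganglion cell genes were less clear. Neurod4, a proneural bHLH gene, had 25.2 and 15.1 CPM in Six6KO, against 60.2, 78.2 and 44.1 CPM in WT (-1.60 ± 0.54, unadjusted p = 0.0149, and -0.43 with the muscle score as a covariate). It was the 1 member of 26 on the neurogenic and Notch list at that level, against 3.9% of all genes, and the median of that list was -0.01. Of 25 measured ganglion cell genes, 24 had log2 fold changes below 0, with a median of -0.34, but none reached an unadjusted p under 0.05. The Six6KO libraries disagreed here, with list scores of 0.05 in rh007 and -0.92 in rh020, against -0.03, 0.40 and -0.37 in WT. Rbpms, an RNA-binding protein used as a pan-ganglion cell marker, had 37.6 and 29.3 CPM in Six6KO, against 46.7, 47.3 and 39.0 CPM in WT (-0.41 ± 0.18, unadjusted p = 0.0518). The axon guidance receptor gene Robo2 had 178 and 116 CPM in Six6KO, against 232, 295 and 185 CPM in WT, and its log2 fold change of -0.69 ± 0.37 was -0.10 with the muscle score as a covariate. Pou4f2, the ganglion cell determinant Brn3b, had 183 and 89.5 CPM in Six6KO, against 119, 205 and 152 CPM in WT, so the groups overlapped. In bulk retina, fewer cells of a type and less RNA per cell cannot be told apart.

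Retinal progenitor genes differed little between the groups. Both Six6KO libraries lay below every WT library in 2 of 26 members, against 5.85% of all genes. Besides Six6 this was Mab21l1, a gene of eye and lens development, with 117 and 126 CPM in Six6KO, against 128, 140 and 132 CPM in WT (-0.13 ± 0.13). Apart from Six6 itself, 0 of the other 25 members reached an unadjusted p under 0.05, and the median over the 26 was -0.11. Rax, the eye field homeobox gene, had 250.04 and 203 CPM in Six6KO, against 151, 205 and 202 CPM in WT. Pax6 had 672 and 511 CPM in Six6KO, against 576, 816 and 769 CPM in WT, and Lhx2 158 and 101 CPM, against 92.9, 145 and 124 CPM. Sox2 had 202 and 117 CPM in Six6KO, against 128, 227 and 177 CPM in WT. In each of these genes rh020 was the lower of the Six6KO pair. It also had the highest lens sum of the 5 libraries, and a link between these was not tested. Six3KO rh012 and rh026, with lens sums of 27101 and 21638 CPM, had the highest and lowest progenitor sums of their group (7053 and 3955 CPM).

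Proliferation genes showed small differences. Over 25 S phase genes the median log2 fold change was -0.04, ranging between -0.30 and 0.13, and over 25 mitosis genes it was -0.10, ranging between -0.32 and 0.12. None of the 50 had an unadjusted p under 0.05. Ccnd1, the D cyclin of retinal progenitors, had 1345 and 637 CPM in Six6KO, against 1447, 2285 and 1090 CPM in WT (log2 fold change -0.70 ± 0.57). Among cell cycle inhibitors, Cdkn1a, the p53 target p21, had 11.7 and 16.2 CPM in Six6KO, against 1.56, 3.12 and 2.93 CPM in WT. Its log2 fold change was 2.47 ± 0.74 (unadjusted p = 0.00817, adjusted p = 0.991), while the p53 target list had a median of 0.07. Its log2 fold change was 1.04 with the muscle score as a covariate. Among Cre carriers Cdkn1a stood at 12.9, 20.5 and 2.30 CPM in DKO and 16.7, 17.9 and 36.9 CPM in Six3KO. DKO rh021, at the lowest of these values, was within the WT range, and the other Cre carriers were above it. Cdkn1c, which encodes p57, had 259.6 and 489.9 CPM in Six6KO, against 241, 110.2 and 175 CPM in WT (1.09 ± 0.48, unadjusted p = 0.0454, and -0.04 with the muscle score as a covariate). Ccnd3 had 121 and 165 CPM in Six6KO, against 121, 93.9 and 103 CPM in WT, and the groups overlapped. Cdkn1c in the muscle-rich Six3KO library rh026 was at 439 CPM, against 149 and 177 CPM in the other Six3KO libraries.

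Of the other sine oculis homeobox, Eya and Dach genes, Eya4 and Six2 were among those higher at an unadjusted p under 0.05. Eya4, a transcriptional coactivator and phosphatase, had 25.8 and 29.0 CPM in Six6KO, against 19.8, 16.4 and 13.6 CPM in WT. Six2, known from kidney and head mesenchyme, had 11.02 and 17.8 CPM in Six6KO, against 7.27, 1.04 and 0.637 CPM in WT. With the muscle score as a covariate, the log2 fold change of Eya4 was 0.13, against 0.72 without it, and that of Six2 was 0.23, against 2.22. In Six3KO rh026 Eya4 stood at 30.1 CPM and Six2 at 18.0 CPM, above both other Six3KO libraries. The cofactor genes expressed by progenitors overlapped between the groups. Dach1 had 247 and 171 CPM in Six6KO, against 199, 302 and 273 CPM in WT, and Eya2 108 and 63.0 CPM, against 57.9, 91.3 and 93.8 CPM.

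Signalling and stress lists held few members at an unadjusted p under 0.05. Lgr5, a Wnt pathway receptor and target, had 23.7 and 15.9 CPM in Six6KO, against 22.8, 42.4 and 49.9 CPM in WT. Id4, an inhibitor of bHLH factors and a BMP target, had 11.9 and 7.17 CPM in Six6KO, against 17.4, 23.4 and 12.7 CPM in WT. Their log2 fold changes were -0.95 for Lgr5 and -0.90 for Id4, and -0.26 and -0.40 with the muscle score as a covariate. Of 17 hypoxia and glycolysis genes, 2 were higher at an unadjusted p under 0.05, against 2.26% of all genes, and none was called. Pgk1 had 35.5 and 45.6 CPM in Six6KO, against 29.5, 27.98 and 24.6 CPM in WT, and Aldoa had 335 and 481 CPM, against 321, 262 and 299.6 CPM. The log2 fold change of Aldoa, 0.47 ± 0.16, was 0.17 with the muscle score as a covariate and 0.16 without Six6KO rh020, and that of Pgk1, 0.57 ± 0.17, was 0.35 without Six6KO rh020. The ciliary margin, FGF/MAPK feedback, Hedgehog target, optic stalk and dorsal and ventral lists had 0 members at that level, with medians between 0.01 and 0.34. Amacrine and horizontal cell genes had 0 of 19 and a median of -0.27.

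Skeletal muscle genes had the largest median difference of the 29 lists. All 20 had log2 fold changes above 0, with a median of 5.80, and all 20 had both Six6KO libraries above every WT library, against 7.2% of all genes. At an unadjusted p under 0.05 there were 19, and none was called across all 11 libraries. Mylpf, a fast skeletal myosin light chain, had 48.5 and 137 CPM in Six6KO, against 2.11, 2.43 and 1.91 CPM in WT. Tnnc1, a troponin of slow and cardiac muscle, had 18.8 and 58.3 CPM in Six6KO, against 0.234, 0.809 and 0.255 CPM in WT. Myod1, the myogenic determination factor, had 6.96 and 7.38 CPM in Six6KO, against 0.391, 0.463 and 0 CPM in WT. Cre carriers held the same genes in some libraries more than in others, with list scores of -0.81, 3.48 and -0.13 in DKO and 1.87, 0.39 and 5.04 in Six3KO. The part of this muscle signal in the values above was not tested beyond the covariate fits, in which the muscle score is confounded with genotype.

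Genes close to Six6 on chromosome 12 were looked at as a group because they are linked to the null allele. The window of 5 Mb on either side was chosen after values had been seen. It held 67 tested genes besides Six6, of which 8 (11.9%) had an unadjusted p under 0.05, against 3.9% of all genes, 6 of them lower and 2 higher. Gpr135, Hif1a and Slc38a6 were named after their values had been seen. None was called, and the median of the 67 was -0.06. Gpr135, an orphan G protein-coupled receptor gene 0.869 Mb from Six6, had 0.232 and 0.428 CPM in Six6KO, against 1.80, 2.43 and 2.42 CPM in WT. The Six6KO levels stand for a few reads per library. Its neighbour L3hypdh, a dehydratase of hydroxyproline breakdown, had 6.03 and 6.53 CPM in Six6KO, against 12.3, 12.03 and 14.02 CPM in WT (-1.02 ± 0.29). Hif1a, the hypoxia-inducible transcription factor, had 325 and 299.8 CPM in Six6KO, against 417, 419 and 348 CPM in WT. On the higher side was Slc38a6, an amino acid transporter gene, at 12.3 and 14.0 CPM in Six6KO against 10.1, 9.94 and 9.56 CPM in WT. In DKO against Six3KO, 12 of the 67 (17.9%) were at an unadjusted p under 0.05, against 13.2% of all genes. L3hypdh and Prkch were at that level and lower in both comparisons, and Prkch was the gene called in DKO against Six3KO.

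**Figure D5:**
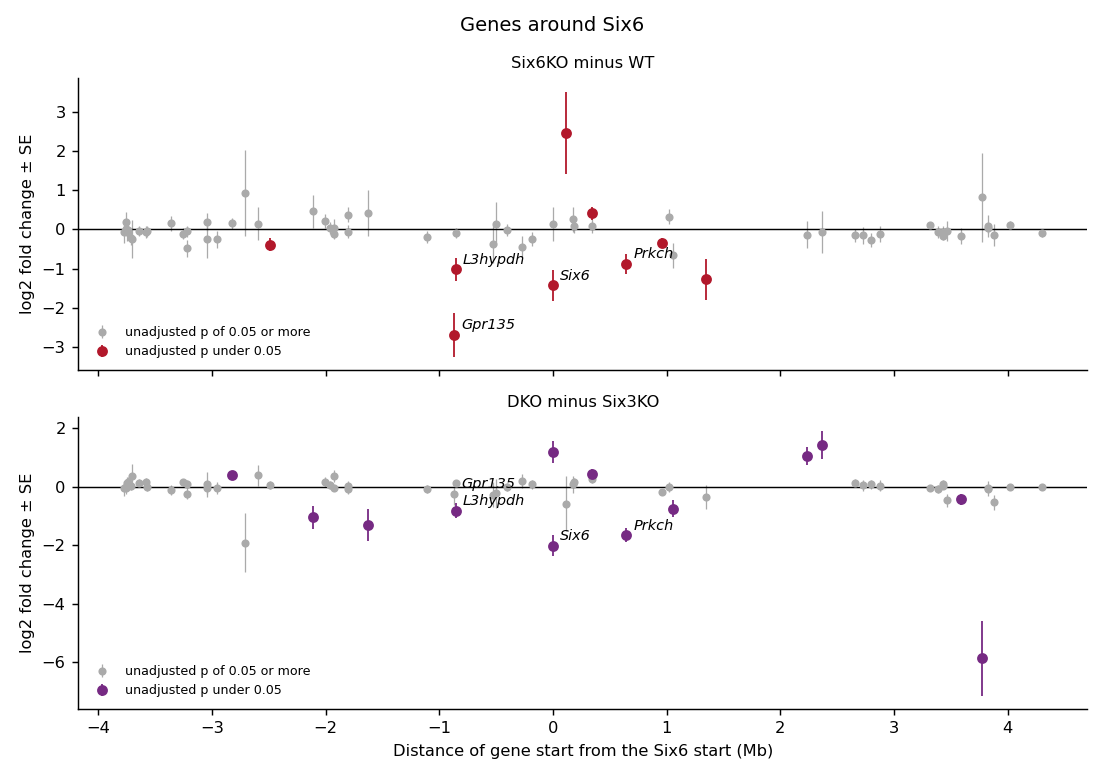
Log2 fold change ± SE of tested genes by the distance of their start from the Six6 start, in Six6KO against WT (top) and DKO against Six3KO (bottom); coloured points have an unadjusted p under 0.05. In the top panel Gpr135, L3hypdh, Six6 and Prkch lie below 0 within 1 Mb, and Gpr135 lies near 0 in the bottom panel.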

How the data were processed

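RNA-seq of ribosome-depleted RNA was made by the authors from pairs of retinas, with 3 pairs per genotype and 1 Six6KO library later removed, per the labels. The authors deposited raw counts of reads per gene for 11 libraries. Trim Galore 0.3.7, TopHat2 2.0.13, HTSeq 0.6.1 and build mm10 are named, per the submitters' processing notes. The annotation and strand option of the counting step were not stated in any label or header. Columns carry genotype and library names, and groups were taken from these. Of 13498 genes in the table, 13292 passed edgeR's filterByExpr at a minimum count of 10 and were tested. Counts were scaled with TMM factors and fitted in edgeR 4.0.16 (R 4.3.3) with robust quasi-likelihood over all 11 libraries and 4 group means. P-values are two-sided, with Benjamini-Hochberg adjustment over all genes tested, and called means an adjusted p under 0.05. SE is the fold change over the square root of F. List scores use log2 CPM with a prior count of 2. The named genes are Six6, Six3, members of the sine oculis homeobox, cell cycle and progenitor lists, 10 genes per direction by smallest unadjusted p (mean of 5 CPM or more, groups without overlap), and up to 3 members of every other list by p, and genes named outside that rule were chosen after their values were seen. The members, the 29 gene lists and the tests were chosen with earlier results of these data known. Gene positions are of GENCODE vM21 on GRCm38. Some members of the lists are not reported here by name. The fit was tested on simulated data. Alternatives were DESeq2 1.42.0, other scaling factors, no filter, the 5 libraries alone, each library left out, and covariates for mesenchyme, lens and muscle scores.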

Additional observations from a re-analysis of the deposited data

How the results depend on the processing

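The number of genes called in Six6KO against WT, 0 in edgeR, was 2 with DESeq2 and 10 with the 5 libraries alone, and it ranged from 0 to 1 with each library left out. The 1 gene was Rpl21, without Six6KO library rh020. For DKO against Six3KO the 78 calls became 775 with DESeq2, 37 with the mesenchyme score, 34 with the muscle score and 0 with the lens score. They became 16 to 91 with each library left out (16 without DKO rh010, 21 without DKO rh011, 38 without Six3KO rh026). The 3 lens-high libraries were Six6KO rh020, Six3KO rh012 and Six3KO rh026. Without them rh006 was the only Six3KO library and rh007 the only Six6KO library, so only folds are given. In DKO against Six3KO, Filip1 was then at 2.61, Cdh13 at 2.37, Erbb4 at 1.77, Otx2 at -1.65 and Prkch at -1.80, which rest on the single Six3KO library. For the difference of effects the 0 calls became 240 with DESeq2 and 0 to 3 with each library left out. The muscle score and the omission of the lens-high, DKO or Six3KO libraries were chosen after seeing the data. Six6 stayed below 0 in all 14 alternatives, from -1.87 to -0.50, with adjusted p between 0.0927 and 1.00. Cdh13 stayed between 1.53 and 1.97, Filip1 between 1.00 and 1.31, Erbb4 between 0.86 and 1.21, Thrb between -1.11 and -0.63 and Otx2 between -0.81 and -0.26, and Neurod4 between -2.01 and -0.43. Six3, at -0.03, turned to 0.40 without Six6KO rh020, 0.20 without WT rh023, 0.25, 0.044 and 1.01 with the mesenchyme, lens and muscle scores, and 0.42 without the lens-high libraries. With the muscle score, Prdm1 turned to 0.34 ± 0.98, Crx to 0.11 ± 0.71 and Cdkn1c to -0.042 ± 0.65. The causes were not tested. The median of the photoreceptor list ranged from -1.11 to -0.59, of the lens list from -3.38 to 5.72, of the mesenchyme list from -1.57 to 0.88 and of the muscle list from -0.26 to 6.36. No paired analysis was possible because the columns carry library names and no replicate numbers. With 2 Six6KO libraries, changes by a fold of 2 were mostly missed in simulation. The simulated libraries held no shared differences in tissue content, so that share does not carry over to the measured ones.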

Other observations

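Ccdc66, on chromosome 14, was on or off by library and not by group. It had 0 and 25.9 CPM in the Six6KO libraries rh007 and rh020, against 25.5, 26.1 and 0.127 CPM in the WT libraries rh016, rh023 and rh024. Among Cre carriers it had 25.7, 24.0 and 25.3 CPM in DKO, against 25.7, 0 and 28.2 CPM in Six3KO. Rpl21, a ribosomal protein gene, had 50.8 CPM in Six6KO rh007 and 9.52 CPM in Six6KO rh020, against 7.03, 8.79 and 6.50 CPM in WT. Pax1, a paired box gene known from the sclerotome and pharyngeal pouches, had 14.97 and 0.214 CPM in Six6KO, against 48.5, 0.694 and 0 CPM in WT, and Pax3, known from neural crest and muscle precursors, had 7.66 and 0.321 CPM in Six6KO, against 20.2, 0.116 and 0.127 CPM in WT. These genes were picked after their values were seen, and no test was made of them.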
